A study of Mus musculus with 222 samples.

Results

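The genes described are 8 meiotic recombination genes, chosen by name as the rows of Spo11, Mei4, Prdm9, Dmc1, Brca2, Msh4, Msh5 and Mlh3 in 3 bulk and 2 single-cell count tables of mouse primordial germ cells (PGCs), which give rise to eggs and sperm. All 8 were found, among 24391 gene symbols per table. The series compares germ cells labelled Eed -/- (ECKO, the conditional knockout) with germ cells labelled wild type (Control) to examine transcription after loss of EED, a core subunit of Polycomb repressive complex 2, which represses genes by methylating histone H3. The bulk tables hold XY germ cells at E11.5 (4 ECKO, 4 Control libraries), XX germ cells at E11.5 (4 ECKO, 3 Control) and XY germ cells at E13.5 (3 ECKO, 4 Control). The single-cell tables hold E12.5 XX ECKO, XX Control, XY ECKO and XY Control cells, from 2 embryos each with 24 cells per embryo.

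All embryos had the mixed strain label C57BL/6;129S1/SvlmJ. Mothers carried the Oct4-GFP reporter (OG) and were homozygous for the floxed Eed allele, and fathers carried Blimp1-Cre (BC) and were heterozygous for it. Every embryo of that cross therefore received at least 1 floxed allele, those labelled wild type included, and which Controls also carried BC is not given in the labels. Blimp1-Cre acts from the founding of the germline, in cells other than germ cells too, and germ cells were collected from dissociated gonads as GFP positive cells.

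Meiotic recombination begins with programmed DNA breaks, made by SPO11 together with accessory proteins such as MEI4, at places that PRDM9 marks on chromatin in mice. The recombinase DMC1, loaded with the help of BRCA2, then pairs a broken end with the homologous chromosome. The MSH4-MSH5 dimer stabilises the joined molecules, and MLH3 acts in the nuclease that turns some of them into crossovers. In mice, XX germ cells enter meiosis in the fetal ovary, whereas XY germ cells stop dividing in the fetal testis and enter meiosis only after birth. BRCA2 and MLH3 also work in DNA repair of dividing cells.

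3 promoters are shown because their genes carry the differences described here: Prdm9 and Msh4, whose E13.5 ECKO libraries lay above all Controls, and Brca2, which was higher at E13.5 than at E11.5 in Controls. The sequences are RefSeq's for GRCm38.p6, 250 bases before to 50 after the gene start, read along the gene. The Prdm9 window is chr17:15564305-15564604 on the minus strand, the Brca2 window chr5:150522371-150522670 on the plus strand and the Msh4 window chr3:153904842-153905141 on the minus strand. Capitals mark TCCCGC on either strand (GCGGGA when read along the gene on the other strand), an element known from promoters of germline genes bound by E2F6.
Prdm9: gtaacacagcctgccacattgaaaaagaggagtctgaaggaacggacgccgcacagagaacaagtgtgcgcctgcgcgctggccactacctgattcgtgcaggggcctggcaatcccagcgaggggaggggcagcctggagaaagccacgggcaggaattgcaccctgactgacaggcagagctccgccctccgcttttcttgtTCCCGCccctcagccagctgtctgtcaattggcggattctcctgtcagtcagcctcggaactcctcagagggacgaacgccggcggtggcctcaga
Brca2: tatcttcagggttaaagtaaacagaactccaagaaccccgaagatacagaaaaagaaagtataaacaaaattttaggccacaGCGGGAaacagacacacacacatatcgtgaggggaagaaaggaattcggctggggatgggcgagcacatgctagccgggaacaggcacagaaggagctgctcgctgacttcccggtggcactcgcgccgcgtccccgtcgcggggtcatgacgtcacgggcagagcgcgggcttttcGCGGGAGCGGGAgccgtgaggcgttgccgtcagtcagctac
Msh4: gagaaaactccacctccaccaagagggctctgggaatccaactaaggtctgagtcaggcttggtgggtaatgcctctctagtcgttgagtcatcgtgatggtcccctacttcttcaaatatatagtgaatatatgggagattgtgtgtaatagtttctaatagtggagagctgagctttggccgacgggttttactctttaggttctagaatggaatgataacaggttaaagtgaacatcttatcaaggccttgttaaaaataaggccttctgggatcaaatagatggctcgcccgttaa

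The element occurred 1 time in the Prdm9 window, 3 times in the Brca2 window, 2 times each in those of Dmc1 and Msh5, and not in those of Msh4, Mei4 and Mlh3. It was present in 20.1% of all 27025 promoter windows of the same length. The E-box CACGTG occurred in none of the 7 member windows, and in 7.24% of all windows. CpG dinucleotides numbered 27 in Msh5, 25 in Brca2, 22 in Mlh3, 18 each in Prdm9 and Dmc1, 16 in Mei4 and 6 in Msh4, against a median of 7 over all windows. These matches describe letters in the windows, not binding. No window of Spo11 was matched.

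Bulk libraries held 8607927 to 14974853 counts at E11.5 XY, 415291 to 7559310 at E11.5 XX and 4903492 to 12425911 at E13.5 XY. Of 192 single cells, 127 with at least 50000 counts and 1500 genes were kept, 13 to 22 per embryo. Eed itself was lower in every ECKO library or embryo than in every Control of its sex and stage, and passed the test at E11.5 XY and E13.5 XY, with a log2 fold change of -1.62 (SE 0.29, edgeR adjusted p = 0.0118) and -3.33 (SE 0.56, edgeR adjusted p = 0.0107, 0.0509 without E13.5 Control 4). The 10 germ cell markers summed to at least 1357 CPM (counts scaled to the size of the library) in every library and embryo. In the pooled libraries, fewer cells with a transcript and less of it per cell cannot be told apart, and levels in CPM are not per gene length, so members are compared across groups and not with each other.

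**Figure D1:**
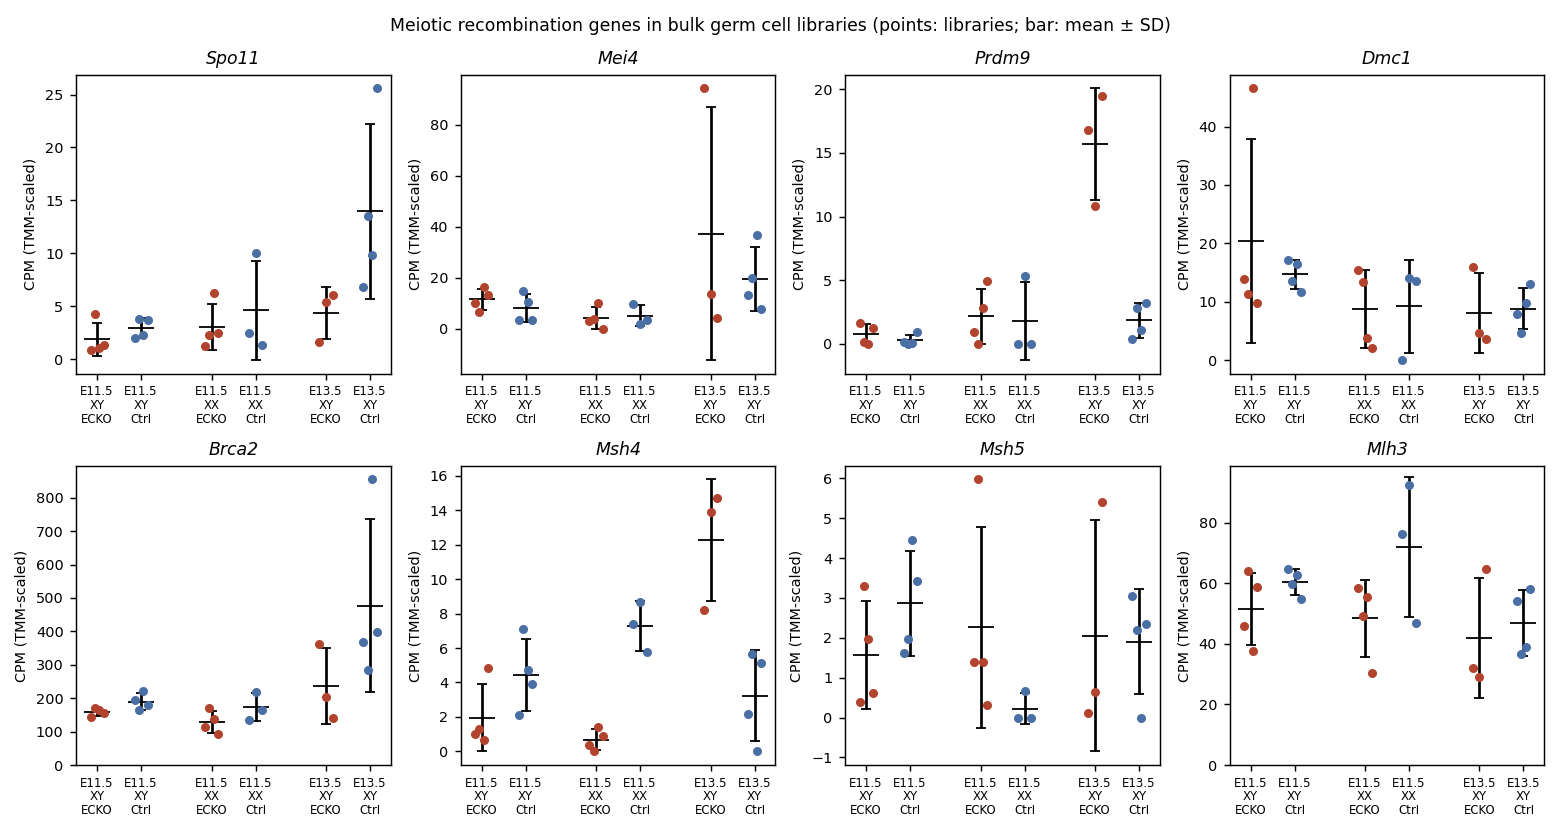
CPM of the 8 members in the 22 bulk libraries, scaled by TMM over all of them; each panel is 1 gene, points are libraries, horizontal bars the mean and whiskers the SD, with ECKO in red and Control (Ctrl) in blue. Prdm9 lay at 10.9 to 19.5 CPM in E13.5 XY ECKO, above all other libraries, and Brca2 reached 857 CPM in 1 E13.5 XY Control.

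At E13.5 in XY germ cells, none of the 8 members passed the test between ECKO and Control (edgeR quasi-likelihood F test, Benjamini-Hochberg adjusted p under 0.05), 2 had an unadjusted p under 0.05, and DESeq2 called 1. Over all 12336 genes tested there, 4.9% were called in either direction. In 3 of the 8 members the groups did not overlap, with Prdm9 and Msh4 higher and Spo11 lower in ECKO, where 23.5% of all tested genes had groups that did not overlap.

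Prdm9, the histone methyltransferase that places meiotic breaks, had 16.8, 10.9 and 19.5 CPM in E13.5 XY ECKO libraries, against 0.326, 2.81, 1.04 and 3.2 CPM in Controls. Every ECKO library was above every Control. The means were 15.7 ± 4.40 CPM in ECKO (SD, n = 3) and 1.84 ± 1.38 CPM in Control (SD, n = 4). The log2 fold change was 3.08 (SE 0.96, unadjusted p = 0.00714), and edgeR's adjusted p of 0.0842 missed the threshold. DESeq2 gave a log2 fold change of 3.17 with an adjusted p of 0.00498, and the adjusted p lay between 0.00498 and 0.267 over the 12 alternatives run.

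Msh4, which encodes a subunit of the MSH4-MSH5 dimer, had 8.21, 13.9 and 14.7 CPM in E13.5 XY ECKO libraries, against 2.17, 5.63, 0 and 5.12 CPM in Controls. Again all ECKO libraries lay above all Controls, with means of 12.3 ± 3.53 CPM in ECKO (SD, n = 3) and 3.23 ± 2.64 CPM in Control (SD, n = 4). The log2 fold change of 1.90 (SE 1.16) did not pass edgeR's test (adjusted p = 0.356). Its partner Msh5 had 0.122, 0.645 and 5.40 CPM in ECKO and 3.04, 2.20, 0 and 2.35 CPM in Control, so the groups overlapped (log2 fold change 0.09, SE 1.54, edgeR adjusted p = 0.981). Both genes had 0 counts in Control 3, where 3 counts would make 0.388 CPM.

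Spo11, the enzyme that makes the breaks, had 1.59, 5.37 and 6.10 CPM in E13.5 XY ECKO libraries and 6.85, 13.55, 9.84 and 25.6 CPM in Control. The 3 ECKO libraries lay below the 4 Controls, at means of 4.36 ± 2.42 CPM in ECKO and 14 ± 8.23 CPM in Control (SD). The log2 fold change was -1.71 (SE 0.87), with an edgeR adjusted p of 0.260. Mei4, its accessory factor, had 94.3, 13.54 and 4.07 CPM in ECKO and 13.4, 20.1, 36.6 and 7.68 CPM in Control. ECKO 1 alone was above the Controls, and the log2 fold change of 0.98 (SE 0.88, edgeR adjusted p = 0.547) became -1.21 without it.

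Brca2, whose product helps to load DMC1, had 362, 205 and 140 CPM in E13.5 XY ECKO and 369, 286, 857 and 397 CPM in Control. Control 3 stood apart from the other Controls and ECKO 1 lay within their range. The log2 fold change was -1.02 (SE 0.45), with an unadjusted p of 0.0439 and an edgeR adjusted p of 0.207. It was -1.54 with an adjusted p of 0.0414 without ECKO 1, and -0.52 with an adjusted p of 0.440 without Control 3. Dmc1 at 15.9, 4.73 and 3.54 CPM in ECKO and 7.93, 4.57, 9.84 and 13 CPM in Control overlapped (log2 fold change -0.13, SE 0.87). Mlh3 at 32.0, 28.9 and 64.6 CPM in ECKO and 54.1, 36.6, 38.8 and 58.0 CPM in Control overlapped too (log2 fold change -0.19, SE 0.45).

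Other genes of meiotic recombination were read from a list of 69, of which 64 had a symbol in the tables. At E13.5, 1 of the 62 tested rose and 2 fell, a share close to the 4.9% called of all genes, with a median log2 fold change of -0.28 over the list and 0.05 over all genes tested. The riser was Mei1, which like Mei4 is needed for break formation in mice, at 1.84, 8.17 and 6.55 CPM in ECKO and no count in any of the 4 Controls. With 165 counts against 0, and 3 counts over the Control group as the floor, it was 63.0-fold higher in ECKO. That bound allows for counting error alone, not for the spread between libraries, and the edgeR adjusted p of Mei1 was 0.0333. Brca1, a repair gene whose product works with BRCA2, fell to 195, 130 and 81.8 CPM in ECKO, against 460, 368, 632 and 371 CPM in Controls (log2 fold change -1.75, SE 0.38, edgeR adjusted p = 0.0266). Bard1, which encodes the partner of BRCA1, fell to 40.8, 41.2 and 30.7 CPM in ECKO, against 122, 112, 371 and 123 CPM in Controls (log2 fold change -2.28, SE 0.48, edgeR adjusted p = 0.0238).

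In none of these 3 genes, which are named because they were called, did the groups overlap, as in 23.5% of all tested genes. Several single libraries were needed for the calls: Mei1 passed in 5 of 12 alternatives, Brca1 in 6 and Bard1 in 7. Mei1 lost its call without Control 1, 2 or 4 and without ECKO 2 or 3, with adjusted p-values from 0.0667 to 0.113, Brca1 without Control 1 or 4 and without ECKO 2 or 3 (0.0597 to 0.107), and Bard1 without Control 4 and without ECKO 2 or 3 (0.0571 to 0.0994). The log2 fold change of Bard1 was -1.60 without Control 3. By role, the 6 tested break formation genes other than the members had a median log2 fold change of 0.83 (the same with Mei1 at its bound), the 8 break end and resection genes -0.62, the 17 strand exchange genes -0.26, the 6 genes of BRCA2 partners, with Brca1 and Bard1 among them, 0.33, the 13 crossover genes 0.31, the 5 mismatch repair relatives -1.03, the 4 hotspot genes -0.14 and the 3 checkpoint genes -0.23.

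The sums of 2 marker lists did not overlap between genotypes at E13.5. The 10 germ cell markers summed to 2378 to 3231 CPM in ECKO and 3664 to 4351 CPM in Control, with 1 of the 10 at 0 in Control 3 and none at 0 elsewhere. The 8 endothelial markers summed to 26.4 to 76.3 CPM in ECKO and 150 to 220 CPM in Control, with 1 to 4 at 0 in ECKO and 2 to 5 in Control. Control 3 reached its 150 CPM with 5 of the 8 at 0, so a sum can rest on few genes and gives no number of endothelial cells. The 14 gonadal supporting cell markers summed to 215 CPM in Control 3, with 8 of the 14 at 0, and overlapped otherwise, at 23.9 to 44.9 CPM in ECKO and 10.4 to 69.5 CPM in the other Controls. Their part in the values above was not tested.

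**Figure D2:**
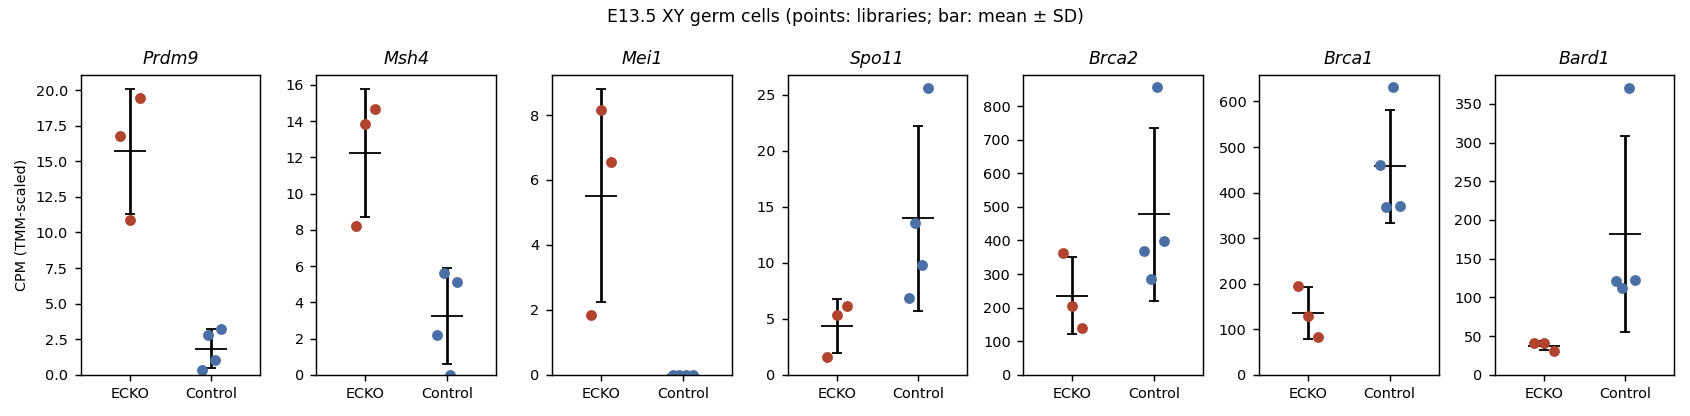
CPM in E13.5 XY germ cells of the members whose groups separated or whose unadjusted p was under 0.05, and of Mei1, Brca1 and Bard1; points are libraries (3 ECKO in red at left, 4 Control in blue at right), horizontal bars the mean and whiskers the SD. Prdm9, Msh4 and Mei1 lay higher in all ECKO libraries, Spo11, Brca1 and Bard1 lower, and Brca2 overlapped.

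At E11.5 in XY germ cells, 7 of the 8 members passed the filter on low counts, Prdm9 being left out at 0 to 1.63 CPM in ECKO and 0 to 0.924 CPM in Control. No member was called or had an unadjusted p under 0.05, and DESeq2 called 0, where 2.13% of all 12497 genes were, and in no member did the groups separate, where 9.97% of all genes did. Brca2 had 143, 172, 166 and 155 CPM in ECKO and 193, 166, 223 and 179 CPM in Control. Its log2 fold change of -0.24 had the smallest SE of the members, 0.15, and an edgeR adjusted p of 0.455. Mlh3 at 46.0, 64.0, 37.7 and 58.6 CPM in ECKO and 64.6, 59.6, 62.7 and 54.7 CPM in Control had a log2 fold change of -0.21 (SE 0.22).

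Of the genes used mainly in meiosis, Msh4 had 1.01, 1.32, 0.660 and 4.83 CPM in E11.5 XY ECKO and 2.09, 7.11, 4.70 and 3.90 CPM in Control. The range of ECKO reached into that of Control through ECKO 4 alone, and the log2 fold change was -1.16 (SE 0.87, edgeR adjusted p = 0.553). Dmc1 lay between 9.86 and 14 CPM in 3 ECKO libraries, 46.6 CPM in ECKO 3, and 11.8 to 17.1 CPM in Controls, with a log2 fold change of 0.49 that was -0.29 without ECKO 3. Spo11 ranged over 0.853 to 4.24 CPM in ECKO and 1.99 to 3.83 CPM in Control, Mei4 over 6.4 to 16.2 CPM in ECKO and 3.43 to 14.8 CPM in Control, and Msh5 over 0.388 to 3.30 CPM in ECKO and 1.61 to 4.45 CPM in Control.

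In the same libraries Stra8, the gene that starts meiosis in response to retinoic acid, had 6.44, 15.2, 6.60 and 14.1 CPM in ECKO and 0.949, 0.328, 0.188 and 0.066 CPM in Control (log2 fold change 4.82, SE 0.89, edgeR adjusted p = 0.0127). The value was 5.80 without Control 1, and the adjusted p was 0.0516 without Control 2. None of the 59 tested genes of the recombination list was called there, with a median log2 fold change of -0.22 over the list and 0.002 over all genes.

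At E11.5 in XX germ cells, 4 of the 8 members passed the filter (Dmc1, Brca2, Msh4 and Mlh3) and none was called by edgeR or DESeq2, with 1 at an unadjusted p under 0.05, where 0.172% of all 11058 genes were. In 1 of the 8 the groups separated, where 12.9% of all tested genes did. That gene was Msh4, at 0.378, 0, 1.39 and 0.917 CPM in ECKO and 7.39, 8.66 and 5.79 CPM in Control. All ECKO libraries lay below all Controls, with a log2 fold change of -3.25 (SE 1.02, unadjusted p = 0.00702, edgeR adjusted p = 0.192). The values rest on 3, 0, 4 and 3 counts in ECKO and 3, 13 and 17 counts in Control, and in the shallowest library, Control 1, 3 counts make 7.39 CPM.

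Brca2 had 113, 171, 138 and 92.3 CPM in E11.5 XX ECKO and 136, 218 and 166 CPM in Control, and the groups overlapped (log2 fold change -0.41, SE 0.25, edgeR adjusted p = 0.493). Mlh3 at 58.4, 49.3, 55.5 and 30.3 CPM in ECKO and 76.4, 92.6 and 47.0 CPM in Control overlapped likewise (log2 fold change -0.53, SE 0.33). Dmc1 had 15.4, 13.4, 3.82 and 2.14 CPM in ECKO and 0, 14 and 13.6 CPM in Control. The other 4 members stayed at or below 10.1 CPM in ECKO and 9.99 CPM in Control. ECKO 4 also held 1226 CPM of 13 interstitial cell markers, against 37.5 to 170 CPM in the other ECKO libraries and 14.2 to 109 CPM in Controls, with 1 of the 13 at 0 in ECKO 4, and their part in these values was not tested. Stra8 had 63.0, 51.5, 24.3 and 1.83 CPM in XX ECKO and 2.46, 2.66 and 1.36 CPM in XX Control. Its groups overlapped through ECKO 4 (log2 fold change 4.14, SE 1.03, edgeR adjusted p = 0.122). None of the 57 tested genes of the recombination list was called.

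A difference by sex in the effect of ECKO at E11.5 passed the test in none of the 8 members and none of 14185 genes (0% called, edgeR interaction, with 747 genes at an unadjusted p under 0.05 and 1 gene called by DESeq2). The largest interaction was in Msh5, at a log2 value of 4.0 for XX minus XY (SE 2.02, edgeR adjusted p = 0.900). It rests on few counts: Msh5 had 11, 8, 4 and 1 counts in XX ECKO and 0, 1 and 0 in XX Control. The estimate for Msh4 was below 0 in both sexes, with a log2 fold change of -3.25 in XX and -1.16 in XY, with an interaction of -2.11 (SE 1.39, edgeR adjusted p = 0.913).

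**Figure D3:**
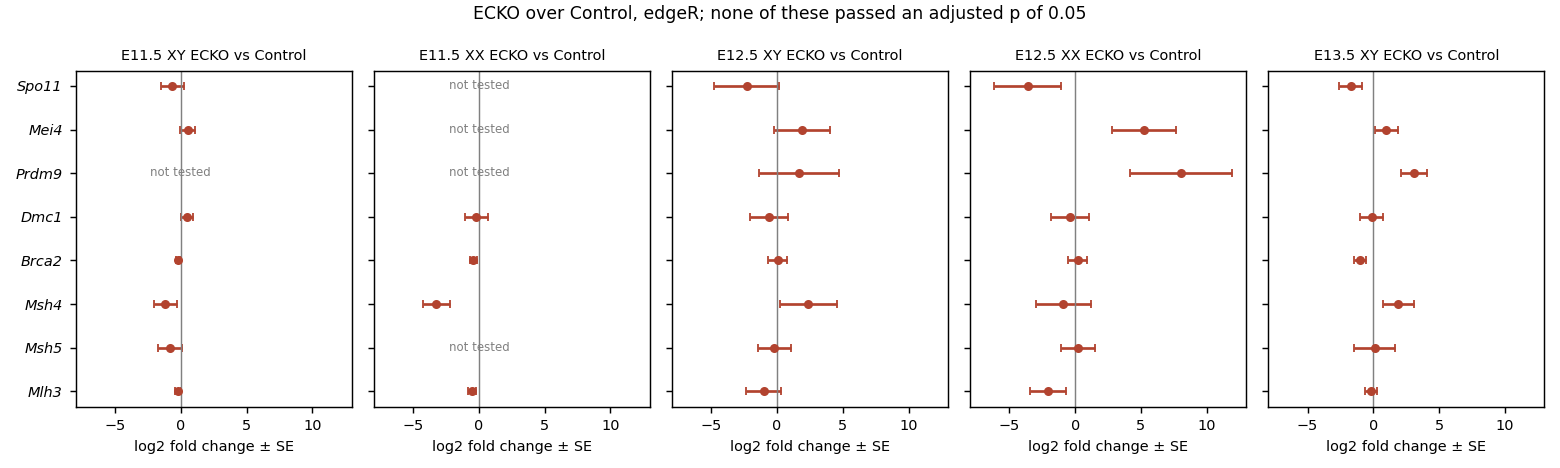
Log2 fold change of ECKO over Control with its SE for the 8 members in the 5 comparisons, from edgeR; members left out by the filter on low counts are marked as not tested. Values to the right of 0 are higher in ECKO, and for 7 of the 8 members the widest bar is at E12.5, with 2 embryos per group, while for Msh5 it is at E13.5 (SE 1.54).

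At E12.5, counts of the kept cells were summed per embryo and named embryo A and B in each group. No member was called by edgeR or DESeq2 between ECKO and Control, and 0 had an unadjusted p under 0.05. In XX 0.0215% of all 13956 genes were called, and in XY 0.00717%. Groups of 2 embryos separated easily: in XX they did not overlap in 4 of 8 members, beside 41.2% of all genes, and in XY in 5 of 8, beside 36.8%. The count of members was near the share of all genes in XX and above it in XY. Neither count was tested, and neither is read here as a result about the members.

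In XX, Mei4 was at 4.22 and 9.13 CPM in ECKO embryos and 0.341 and 0 CPM in Control embryos (log2 fold change 5.24, SE 2.45, edgeR adjusted p = 0.426). A single cell held 77 of the 113 Mei4 counts of ECKO A, 128 of the 152 of ECKO B and all 10 of Control A. Prdm9 was at 1.46 and 1.5 CPM in XX ECKO and had no count in either XX Control. With 64 counts against 0, and 3 counts over the Control group as the floor, it was 27.7-fold higher in ECKO. That bound allows for counting error alone, not for the spread between cells or embryos, and the edgeR adjusted p was 0.435. The 64 counts came from 1 cell in each ECKO embryo.

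Spo11 in XX was at 0 and 2.64 CPM in ECKO and 2.94 and 29.8 CPM in Control (log2 fold change -3.63, SE 2.57, edgeR adjusted p = 0.577), and a single cell held 568 of the 809 counts of Control B. Mlh3 was at 2.02 and 1.38 CPM in XX ECKO and 3.11 and 11.4 CPM in XX Control (log2 fold change -2.09, SE 1.37, edgeR adjusted p = 0.548). The other 4 members overlapped. Brca2 was at 25.1 and 150 CPM in ECKO and 103.5 and 49.4 CPM in Control, Dmc1 at 6.68 and 6.55 CPM in ECKO and 13 and 4.27 CPM in Control, Msh4 at 0.821 and 5.17 CPM in ECKO and 6.28 and 5.08 CPM in Control, and Msh5 at 8.36 and 3.48 CPM in ECKO and 1.81 and 8.47 CPM in Control.

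In XY, Mei4 was at 2.75 and 5.27 CPM in ECKO and 1.70 and 0.446 CPM in Control, and Msh4 at 6.4 and 2.36 CPM in ECKO and 0 and 1.68 CPM in Control. Spo11 was at 0.95 and 0 CPM in ECKO and 3.62 and 1.14 CPM in Control, Mlh3 at 4.95 and 6.30 CPM in ECKO and 13.4 and 9.22 CPM in Control, and Msh5 at 8.60 and 8.51 CPM in ECKO and 10.8 and 8.87 CPM in Control. In these 5 genes the embryos of the groups did not overlap, with edgeR adjusted p-values of 0.867 or more. A single cell held all 128 Msh4 counts of XY ECKO A and all 34 of XY Control B. Brca2 at 67.9 and 61.3 CPM in ECKO and 61.5 and 64.6 CPM in Control had a log2 fold change of 0.03 (SE 0.72).

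Between the sexes, no member was called in XX ECKO against XY ECKO (0% of all genes called, with 890 at an unadjusted p under 0.05 and 231 called by DESeq2). Dmc1 was higher without overlap, at 6.68 and 6.55 CPM in XX ECKO and 1.55 and 4.53 CPM in XY ECKO, and Mlh3 was lower without overlap, at 2.02 and 1.38 CPM in XX ECKO and 4.95 and 6.30 CPM in XY ECKO. Together with Msh5 these were 3 of 8 members, beside 35.9% of all genes. The interaction of sex with genotype called no member and no gene (0% called, with 681 at an unadjusted p under 0.05 and 133 called by DESeq2). Stra8 was at 286 and 146 CPM in XX ECKO and 5.09 and 0.0368 CPM in XX Control. In XY ECKO it was at 4.0 and 25.9 CPM, while neither XY Control embryo had a count. The 10 meiotic entry genes of the marker list summed to 1103 and 1080 CPM in XX ECKO and to 607 to 700 CPM in XX Control. In XY they summed to 705 and 555 CPM in ECKO and 511 and 456 CPM in Control, also without overlap.

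The 13 interstitial cell markers moved with genotype in these embryos, at 16.5 and 319 CPM in XX ECKO and 0.313 and 1.08 CPM in XX Control, and at 19.7 and 24.7 CPM in XY ECKO and 0.494 and 3.95 CPM in XY Control. Of the 13, 8 and 6 were at 0 in the XX ECKO embryos and 12 and 6 in the XX Control embryos, and 10 and 10 were at 0 in XY ECKO against 11 and 10 in XY Control. Tcf21, Dcn, Maf and Cyp11a1 were at 0 in all 8 embryos. The 10 germ cell markers, none at 0, summed to 1854 and 1357 CPM in XX ECKO and 2992 and 2954 CPM in XX Control, and to 1802 and 2254 CPM in XY ECKO and 3055 and 2603 CPM in XY Control. The 14 gonadal supporting cell markers summed to 37.2 and 150 CPM in XX ECKO and 31.4 and 13.8 CPM in XX Control, and to 20.8 and 6.87 CPM in XY ECKO and 56.0 and 27.8 CPM in XY Control, with 3 to 9 of the 14 at 0 in ECKO embryos and 10 to 13 in Control embryos. The 8 endothelial markers summed to 78.7 and 50.7 CPM in XX ECKO and 179 and 88.4 CPM in XX Control, with 4 and 5 at 0 in ECKO and 3 and 3 in Control, and overlapped in XY. Their part in the results was not tested.

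Cell by cell, a member counted as present from 10 CPM upwards. Brca2 was present in 93 of the 127 cells, Mlh3 in 31, Msh5 in 20, Dmc1 in 18, Spo11 and Msh4 in 11 each, Mei4 in 10 and Prdm9 in 3. At least 1 member was present in 112 cells, and the median cell of an embryo had 1 or 2. No cell had more than 5. Beside these shares, Stra8 was present in 25 of 26 XX ECKO cells and 1 of 30 XX Control cells.

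Spo11 was present in 0 of 13 and 2 of 13 cells of XX ECKO embryos A and B, and in 2 of 14 and 4 of 16 cells of the XX Controls. The 0 of 13 allows a share of up to 23.1% by the rule of 3 (3 divided by the number of cells) and 24.7% by the exact interval. Mei4 was present in 3 of 26 XX ECKO and 0 of 30 XX Control cells, and in 6 of 36 XY ECKO and 1 of 35 XY Control cells. Prdm9 was present in 1 of 26 XX ECKO and 2 of 36 XY ECKO cells, and in none of the 30 XX and 35 XY Control cells. Its absence allows shares in single Control embryos of up to 13.6% to 23.1% by the rule of 3 and 15.4% to 24.7% by the exact interval. Mlh3 was present in 2 of 26 XX ECKO and 8 of 30 XX Control cells, and in 10 of 36 XY ECKO and 11 of 35 XY Control cells. Exact 95% intervals per embryo were wide and overlapped between genotypes for each of these genes.

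Brca2 was present in 61.5% (31.6 to 86.1) and 69.2% (38.6 to 90.9) of cells in the XX ECKO embryos and 57.1% (28.9 to 82.3) and 68.8% (41.3 to 89.0) in the XX Controls (exact Clopper-Pearson 95% intervals). In XY it was present in 77.8% of cells (52.4 to 93.6) of each ECKO embryo and 69.2% (38.6 to 90.9) and 90.9% (70.8 to 98.9) in Controls. Thinned to 50000 counts per cell, Brca2 had a count in 13 of 26 XX ECKO, 14 of 30 XX Control, 27 of 36 XY ECKO and 24 of 35 XY Control cells. The kept cells of the embryos had median depths of 1061912 to 1998464 counts in ECKO and 990911 to 1981852 in Control.

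Cells with 2 members present mostly had Brca2, which was present in most cells. Dmc1 and Brca2 were both present in 16 of the 18 Dmc1 cells, and Msh5 and Brca2 in 18 of the 20 Msh5 cells. Spo11 shared 1 of its 11 cells with Mei4 and 1 with Dmc1, and none with Prdm9. Msh4 and Msh5, which encode a dimer, were both present in 4 cells, which is 4 of 11 Msh4 cells and 4 of 20 Msh5 cells. These counts describe cells of 8 embryos with sparse detection and are given without a test.

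**Figure D4:**
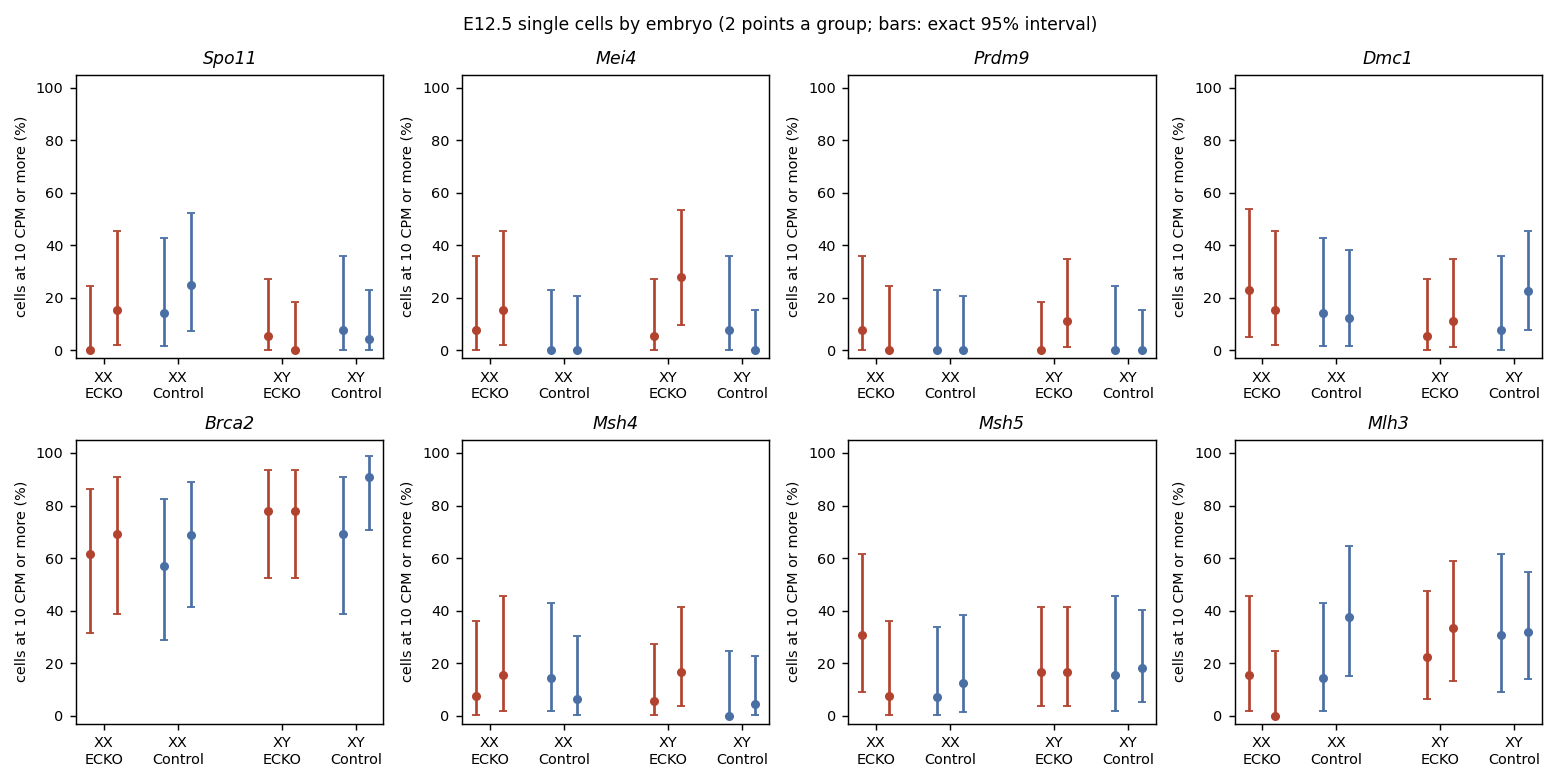
Share of kept E12.5 cells at 10 CPM or more for each member, 1 point per embryo, with exact Clopper-Pearson 95% intervals that cover the sampling of cells only; ECKO is red and Control blue. Brca2 lies at 57.1% to 90.9% in every embryo, and all other members at 37.5% or less.

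The stage comparison in XY asks how the members stood at E13.5 against E11.5, with both tables fitted together, so that stage and table cannot be told apart. In Controls, Brca2 rose to 369, 286, 857 and 397 CPM at E13.5, against 193, 166, 223 and 179 CPM at E11.5 (log2 fold change 1.33, SE 0.30, edgeR adjusted p = 0.00225). It passed in all 18 alternatives run for it, with a log2 fold change of 0.89 to 1.53 and the lowest without E13.5 Control 3. Spo11 rose to 6.85, 13.55, 9.84 and 25.6 CPM at E13.5, against 1.99, 3.83, 2.32 and 3.70 CPM at E11.5 (log2 fold change 2.24, SE 0.81, edgeR adjusted p = 0.0401). The groups did not overlap in either gene. Endothelial markers, 8 in all, summed to 150 to 220 CPM at E13.5 and 230 to 377 CPM at E11.5 in these Controls, with 2 to 5 at 0 at E13.5 and 0 to 2 at E11.5, and the germ cell markers to 3664 to 4351 CPM at E13.5 and 2410 to 3013 CPM at E11.5. Their part was not tested. Spo11 passed in 11 of 18 alternatives and was lost with no filter on low counts (adjusted p = 0.0689), without any 1 of the 4 E11.5 Controls (0.0648 to 0.0970) and without E13.5 Control 2 or 4 (0.0653 and 0.139).

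These 2 of 8 members called stand beside 31.5% of all 14447 genes called in either direction in Controls, and 2 of 8 without overlap beside 36.7% of all genes. Prdm9 in Controls was at 0.326 to 3.2 CPM at E13.5 and 0 to 0.924 CPM at E11.5. It missed the threshold (log2 fold change 2.66, SE 1.27, edgeR adjusted p = 0.118) but passed in 1 of 18 alternatives. The log2 fold change lay between 2.28 and 4.79 over those alternatives. Mei4, with a log2 fold change of 1.28 (SE 0.75), Dmc1 at -0.73 (SE 0.63), Msh4 at -0.45 (SE 1.0), Msh5 at -0.59 (SE 1.26) and Mlh3 at -0.36 (SE 0.32) did not pass either.

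In ECKO, Prdm9 rose to 16.8, 10.9 and 19.5 CPM at E13.5, against 1.63, 0.0942, 0 and 1.21 CPM at E11.5 (log2 fold change 4.39, SE 1.37, edgeR adjusted p = 0.0244). It was the 1 member of 8 called, beside 23.7% of all genes, and it passed in 15 of 18 alternatives, failing without E11.5 ECKO 2 or 3 (adjusted p = 0.0632 and 0.0521) and without E13.5 ECKO 3 (0.0543). Without E11.5 ECKO 1 the log2 fold change was 5.21. In ECKO the endothelial markers summed to 26.4 to 76.3 CPM at E13.5 and 137 to 391 CPM at E11.5, with 1 to 4 at 0 at E13.5 and none at E11.5, and their part was not tested. Msh4 was at 8.21, 13.9 and 14.7 CPM at E13.5 and 1.01, 1.32, 0.660 and 4.83 CPM at E11.5, with no overlap (log2 fold change 2.64, SE 1.09), and did not pass with edgeR (adjusted p = 0.0840). It passed in 3 of 18 alternatives, with DESeq2 (0.0213) and with edgeR without E11.5 ECKO 4 (0.0403) or without E13.5 Control 3 (0.0229). Mei4 and Dmc1 passed in 1 alternative each, Mei4 without E13.5 ECKO 3 (2.21, adjusted p = 0.0385) and Dmc1 without E13.5 ECKO 1 (-2.30, adjusted p = 0.0372). Prdm9 and Msh4 were the 2 of 8 members without overlap, beside 33.7% of all genes.

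The comparisons in ECKO and in Control were set against each other by an interaction term, which called no member, where 1.2% of all genes were called. The largest was in Msh4, with a log2 value of 3.10 (SE 1.47, unadjusted p = 0.0479, edgeR adjusted p = 0.279). For Spo11 it was -1.0 (SE 1.16, edgeR adjusted p = 0.702), for Prdm9 1.73 (SE 1.81, edgeR adjusted p = 0.666), and for Brca2 -0.77 (SE 0.44, edgeR adjusted p = 0.381). So the data do not show that the stage change of Spo11, Prdm9 or Brca2 differed between the genotypes.

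Gene span moved with stage over all genes. With genes split by span into 4 equal classes, the median log2 fold change of E13.5 over E11.5, from the shortest to the longest class, was -0.66, -0.24, 0.11 and 0.39 in ECKO and -1.05, -0.35, 0.12 and 0.45 in Control. Genes of the longest class held 31.8% to 39.8% of counts at E13.5 and 20.6% to 25.9% at E11.5. Spo11 and Prdm9 stand in class 2, Brca2 and Msh4 in class 3, counted from the shortest. Their distances from the median of their class were 2.59 for Spo11 and 1.21 for Brca2 in Control, and 4.62 for Prdm9 in ECKO, on the log2 scale. The part of span in these values was not tested further.

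**Figure D5:**
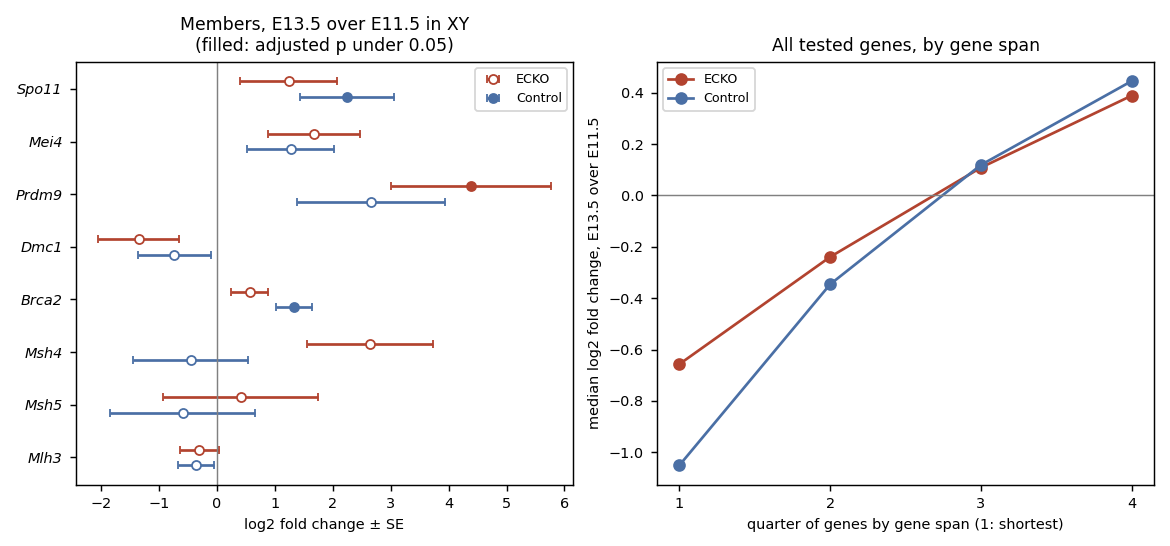
Left, log2 fold change of E13.5 over E11.5 in XY with its SE for each member, ECKO in red above Control in blue, filled where the edgeR adjusted p was under 0.05; right, the median log2 fold change of all tested genes in each of 4 classes by gene span. Prdm9 in ECKO and Spo11 and Brca2 in Control are filled, and the medians run from -0.66 to 0.39 in ECKO and from -1.05 to 0.45 in Control.

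Of the other recombination genes, 13 rose and 8 fell of 63 tested in ECKO, and 17 rose and 6 fell of 63 in Control, where 23.7% of all genes were called in ECKO and 31.5% in Control. In both genotypes Hormad1, which encodes a protein of the unsynapsed chromosome axis, Hfm1, a helicase gene of the crossover pathway, Rmi1 and the checkpoint kinase gene Atr rose. Hormad1 averaged 55.6 CPM at E13.5 and 9.64 CPM at E11.5 in ECKO (log2 fold change 2.52, edgeR adjusted p = 0.000819), and 146 CPM at E13.5 and 11.4 CPM at E11.5 in Control (3.69, edgeR adjusted p = 9.44e-06). Shfm1, which encodes a small partner of BRCA2, fell in both, with a log2 fold change of -2.48 in ECKO and -3.62 in Control, as did Psmc3ip, a cofactor gene of DMC1, at -1.75 in ECKO and -1.68 in Control.

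The interaction of stage with genotype called 0 of the 63 tested genes of the list, where 1.2% of all genes were called. Only up to 6 genes per direction are named, so a gene named in 1 genotype may be called in the other too. Among the genes with the smallest adjusted p, Cxxc1 (1.6) and Tex11 (1.86) rose in ECKO, and Rad50 (1.68) and Atm (1.38) in Control, as log2 fold changes. Swi5 fell in Control (-1.84), while Chek2, Rpa1 and Rpa3 fell in both, with log2 fold changes of -1.53, -0.90 and -1.58 in ECKO and -1.12, -1.12 and -3.44 in Control. Rpa3 in ECKO lost its call without E13.5 ECKO 2 (adjusted p = 0.0527), and the log2 fold change of Rmi1 in ECKO was 0.91 without E13.5 ECKO 1.

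Ordered by mean level over the 6 bulk groups, neighbouring groups overlapped in all members with 1 exception, Prdm9, where E13.5 XY ECKO stood above the next group, E11.5 XX ECKO at 2.14 ± 2.17 CPM (SD, n = 4). Brca2 was highest in E13.5 XY Control at 477 ± 258 CPM (SD, n = 4) and lowest in E11.5 XX ECKO at 129 ± 33.9 CPM (SD, n = 4). Mlh3 varied least, between 41.8 ± 19.8 CPM in E13.5 XY ECKO (SD, n = 3) and 72.0 ± 23.1 CPM in E11.5 XX Control (SD, n = 3). The tables were scaled together, and table and group cannot be told apart in this order.

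The genes whose log2(CPM + 1) followed each member most closely over the 22 bulk libraries, among 10056 candidates, were taken by Pearson's r, as a description of libraries that share stage and depth. Brca2 was closest to Apc (r = 0.959), Wapal (0.951) and Rif1 (0.951). Spo11 was closest to Rims2 (0.845), Mei4 to AW554918 (0.844), Prdm9 to Rragd (0.841), Msh4 to Cenpt (0.798), Dmc1 to Hexdc (0.796), Msh5 to Znfx1 (0.768) and Mlh3 to Cdan1 (0.731). Candidates had a mean of at least 5 CPM, so Prdm9 (3.29 CPM), Msh4 (4.54 CPM) and Msh5 (1.87 CPM) could not appear as such. None of the other members was among the 3 closest genes of another member.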

How the data were processed

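The counts are the authors' deposited whole numbers per gene symbol, 1 column per bulk library or cell. Per the labels' protocols, bulk libraries used Ovation RNA-seq System V2 amplification, and single cells Smart-seq2. The submitters' processing notes name HISAT2, edgeR and mm9. How reads were counted, by which annotation and strand, is not given in the sources used here, so reads of overlapping or antisense genes cannot be told apart. The 8 methylation libraries were not analysed here.

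Each bulk table was fitted in edgeR 4.0.16 (R 4.3.3) with filterByExpr, TMM and the quasi-likelihood F test, Benjamini-Hochberg adjusted over all genes tested, and called at 0.05. SE is the absolute log2 fold change over the square root of F. Cells were summed per embryo and the 8 embryos fitted together. Sex and stage interactions used joined tables. DESeq2 1.42.0, RLE scaling, no filter, left-out libraries or embryos, a replicate block, deeper cells and cells numbered 24 left out were alternatives. Embryos are named by column identifiers, which could not be matched to the labels' numbers, and 1 XX ECKO cell has a genotype label of wild type and was grouped by its title. Presence is 10 CPM or more. Intervals and floors allow for counting error alone, since PCR copies without molecular identifiers are no separate molecules. Whether replicates came from separate embryos is not stated for bulk libraries, so p-values measure the spread between libraries. Replicates differed by more than counting error (chi-square per degree of freedom 4.78 to 204). The code was tested on simulated data. Promoters and spans came from RefSeq GRCm38.p6, with spans for 99.8% of tested genes.

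Members, lists and tests were chosen with earlier results of these data known. Beside the members, Eed, Stra8, Sycp3 and called genes of the recombination list, up to 6 per direction by adjusted p, are named. 1 gene that this rule names is not reported here.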

Additional observations from a re-analysis of the deposited data

Results flagged for a closer look

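In 4 of 32 groups of 4 libraries, 1 library stood apart from the other 3 by Dixon's test. Chance alone gives about 1 in 20 for normally distributed values only. Spo11, Msh4 and Prdm9 rest on few counts here, so 4 of 32 cannot be set against that rate. All 4 were at E11.5 in XY. Spo11 was at 4.24 CPM in ECKO 2, with 0.853 to 1.31 CPM in the other ECKO libraries. Dmc1 was at 46.6 CPM in ECKO 3, with 9.86 to 14 CPM in the others. Msh4 was at 4.83 CPM in ECKO 4, with 0.660 to 1.32 CPM in the others. Prdm9 was at 0.924 CPM in Control 4, with 0 to 0.0949 CPM in the other Controls. The 13 interstitial cell markers summed to 423 CPM in ECKO 4 and to 18.7 to 66.1 CPM in the other ECKO libraries, and their part was not tested.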

How the results depend on the processing

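Counts of called genes depended on the tool and filter, and no member was called in an ECKO against Control comparison except at E13.5, where DESeq2 called 1 (Prdm9) and leaving out each library gave 0 to 1 (Brca2 without ECKO 1). DESeq2 called 759 genes at E11.5 XY, 315 at E11.5 XX, 1702 at E13.5, 917 in E12.5 XX, 326 in E12.5 XY, 231 between XX and XY ECKO, 133 for sex by genotype at E12.5, 1 at E11.5 and 850 for stage by genotype. With no filter these were 457, 217, 1268, 566, 150, 127, 84 (sex by genotype at E12.5) and 306 (stage by genotype). Leaving out each library or embryo gave 64 to 333 genes at E11.5 XY, 0 to 26 at E11.5 XX, 94 to 2141 at E13.5, 46 to 241 in E12.5 XX, 3 to 53 in E12.5 XY, 2 to 27 between XX and XY ECKO (1 without the cells numbered 24), 0 to 37 and 0 to 1 for sex by genotype at E12.5 and E11.5, and 30 to 1267 for stage by genotype. Where 1 embryo was left in a group, it is assumed to vary like the other groups. Members called by stage were 0 to 2 in ECKO, 2 with DESeq2, and 1 to 2 in Control, 1 with no filter.

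The labels state no pairing of libraries of equal number. Their deviations had correlations of -0.137 to 0.172, which cannot settle the design with so few libraries a group. The replicate block is therefore an alternative only. It called 151 genes at E11.5 XY, 35 at E11.5 XX and 26 at E13.5, where the same libraries without the block gave 94. Log2 fold changes that turned with the block were Dmc1 at E11.5 XX (0.11, and 0.12 for the same libraries without it) and Mei4 (-0.35) and Msh5 (-1.02) at E13.5, where Dmc1 was 0.15 for the same libraries without it. At E12.5 no paired analysis was possible because the embryo identifiers in the column names share a first part across genotypes in only 1 pair (XX ECKO A and XX Control A), and the labels do not say what it marks.

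Leaving out each library or embryo turned the sign of these log2 fold changes of ECKO over Control, none of them called: at E11.5 XY Dmc1 (-0.29 to 0.72) and Sycp3 (-0.052 to 0.98); at E11.5 XX Dmc1 (-0.65 to 0.12) and Sycp3 (-0.38 to 1.35); at E13.5 Mei4 (-1.21 to 1.51), Dmc1 (-1.18 to 0.24), Msh5 (-2.27 to 0.59) and Mlh3 (-0.62 to 0.017); in E12.5 XX Dmc1 (-0.97 to 0.63), Brca2 (-1.60 to 0.98) and Msh5 (-0.55 to 1.72); in E12.5 XY Prdm9 (-2.46 to 7.48), Dmc1 (-1.59 to 0.41) and Brca2 (-0.072 to 0.11). Between XX and XY ECKO it turned Spo11 (-6.48 to 7.94), Prdm9 (-0.34 to 4.74), Brca2 (-1.36 to 1.23) and Msh4 (-2.41 to 0.39), and by stage in ECKO Mei4 (-0.38 to 2.21) and Msh5 (-1.98 to 1.06). The cause was not tested. Prdm9, Msh4, Msh5 and Spo11 often rest on under 20 counts a library, which limits them.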

Other observations

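Sycp3, a gene of the synaptonemal complex that forms beside recombination, was at 65.3, 140 and 226 CPM in E13.5 XY ECKO and 22.1, 21.1, 142 and 43.7 CPM in Control (log2 fold change 1.30, SE 0.64, edgeR adjusted p = 0.248). Without Control 3 the log2 fold change was 2.37 with an adjusted p of 0.0266. At E12.5 it was present at 10 CPM or more in 15 of 26 XX ECKO and 2 of 30 XX Control cells, and in 8 of 36 XY ECKO and 1 of 35 XY Control cells. At least 1 count was seen in 22 of 26 XX ECKO and 21 of 30 XX Control cells, and in 29 of 36 XY ECKO and 12 of 35 XY Control cells. Mei1 had 72 counts over the XX ECKO embryos and 0 over the XX Controls at E12.5. With 3 counts over the Controls as the floor that is 31.2-fold higher, a bound for counting error alone. Mei1 did not pass the test (edgeR adjusted p = 0.428).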
